A study of Homo sapiens with 4 samples.

Results

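The integrated stress response (ISR) is the pathway by which cells slow protein synthesis when amino acids, oxygen or protein folding in the endoplasmic reticulum fall short. Kinases that sense these states phosphorylate the initiation factor eIF2, most translation is lowered, and the transcription factor ATF4 is translated better and switches on genes for amino acid supply, redox balance and feedback. Several genes of this and neighbouring stress pathways also restrain mTORC1, the kinase complex that drives growth when nutrients and oxygen are plentiful, and hypoxia is known both to activate the ISR and to restrain mTORC1.

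The expression of 10 genes of this response was examined: the transcription factors ATF4, ATF5 and DDIT3, the ATF4 target enzymes ASNS and CHAC1, the feedback genes TRIB3 and PPP1R15A, the mTORC1 restraints DDIT4 and SESN2, and TXNIP, an inhibitor of thioredoxin and of glucose uptake. They were taken by symbol from the deposited table of 62077 rows, keeping rows on a chromosome. All 10 were found. TXNIP has a further row on an alternate sequence, which is listed at 0 in all 4 libraries and was left out.

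RNA was sequenced from FaDu, an established human line from a squamous carcinoma of the hypopharynx, in 4 libraries with 1 library per group. Cells carried a scrambled control or a knockdown of TET1 (TET1-si), the dioxygenase that oxidises 5-methylcytosine in DNA. All had been infected with a pLKO.1-puro lentiviral hairpin vector, and the study lists 1 hairpin against TET1. They were kept in normoxia (air with 5% CO2) or for 19 h in hypoxia, at 1% oxygen with 5% CO2 in 94% nitrogen. The groups are called scr-N (normoxia, scrambled), si-N (normoxia, TET1-si), scr-H (hypoxia, scrambled) and si-H (hypoxia, TET1-si).

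Levels are given as FPKM, fragment counts divided by exon length and by library size, as the authors deposited them. FPKM is a level per length, so genes can be set side by side on it. Depths recovered from the values ran from 22500000 to 24500000 reads. TET1, the target, was listed at 0.129 FPKM in scr-N, 0.0493 in si-N, 0.331 in scr-H and 0.122 in si-H, which is 2.63-fold lower with TET1-si in normoxia and 2.71-fold lower in hypoxia, on about 11 to 76 reads per library. Of 11 squamous epithelial markers, 11 had a mean of at least 1 FPKM, with sums of 5242, 2240, 8205 and 4510 FPKM in scr-N, si-N, scr-H and si-H. KRT14 and KRT6A were among them at 0.357 to 1.41 FPKM in the TET1-si libraries, against 42.1 to 109 in the scrambled ones. Among markers of other cells, 1 of 6 for fibroblasts (COL1A1), 2 of 5 for leukocytes (CD14 and CD68) and 2 of the 3 found for endothelium (CDH5 and VWF) reached a mean of 1 FPKM, while PTPRC and CD3E were at or near 0. Their sums ran from 5.30 to 37.2 FPKM for fibroblast, 21.6 to 30.2 for leukocyte and 8.93 to 48.4 for endothelial markers, and their part in the results was not tested.

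A change is the difference of log2(FPKM + 0.1) between 2 libraries. A gene was called when it changed by at least 1 on that scale, which is 2-fold, and the pseudocount of 0.1 shrinks this measure for weakly expressed genes. The background for every comparison is the 15057 genes with a mean of at least 1 FPKM. All 10 genes passed this filter. Each library enters a hypoxia and a knockdown comparison, so these comparisons share libraries. With 1 library per group no difference has a replicate check, no test was run and no p-value is given. Intervals in brackets are 95% intervals from approximate reads, and they cover counting error only. For a change between 2 libraries they are exact (Clopper-Pearson) intervals of the log2 ratio. For a difference of responses they are normal approximations, centred on the difference computed without the pseudocount. In bulk RNA, fewer cells with a transcript and less of it per cell cannot be told apart.

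Promoter sequence of all 10 genes was found among the RefSeq windows of GRCh38.p14, which run from 250 bases before to 50 bases after each annotated start. These coordinates are of another build than the hg19 positions of the genes. The windows were searched on both strands for TGATGNAA, the C/EBP-ATF response element through which ATF4 acts. It was present for 2 of 10 genes, ASNS and CHAC1, and in 3.62% of 35116 windows. Of 18 other ATF4 target genes with a window, 4 held it, as did 2.69% of 9137 background genes with a window. The lines below show both matches with the element in capitals, 5′ to 3′ on the strand of the gene, because ASNS and CHAC1 were the 2 of the 10 genes that were more than 2-fold lower in hypoxia. Positions count from the annotated start, with negative ones before it. The ASNS match lies at -68 to -61, chr7:97872459-97872486 (minus strand). That of CHAC1 lies at -209 to -202, chr15:40953252-40953279 (plus strand) and reads as TTGCATCA because the element stands on the opposite strand.
ASNS: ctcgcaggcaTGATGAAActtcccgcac
CHAC1: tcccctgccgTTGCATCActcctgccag

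The core of the hypoxia response element, ACGTG or GCGTG on either strand, to which HIF binds, was present for 8 of 10 genes, against 70.7% of background genes and 48.4% of windows, so it does not set the genes apart. TRIB3 held 6 matches, all listed in its first window, and some of them share a base. For ATF4 the count was 4 over 2 windows. It takes a CACGTG on both strands and the same GCGTG in both windows. DDIT4 and PPP1R15A held 4 each in 1 window. Those of DDIT4 are shown because DDIT4 is a known HIF target that was called higher in hypoxia. The 3 that lie before the start are given with the core in capitals, beginning at -219, -125 and -53, at chr10:72273695-72273719, chr10:72273789-72273813 and chr10:72273861-72273885 (plus strand). The label of the core nearest the start refers to these 3. The remaining core lies after the start, at 25 to 29, and is nearer to it. ATF5 and SESN2 held none in their windows.
DDIT4 first core: cagaaaggggGCGTGgcggtgggtc
DDIT4 second core: aacgttgcttACGTGcgcccggagt
DDIT4 core nearest the start: cgcagagaagGCGTGgcctcgccgc

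TXNIP is a target of the glucose-sensing factors MLXIP and MLXIPL, which bind pairs of E-box-like letters, CACGNG and CACGNG 5 bases apart. Such a pair was present in the TXNIP window and in 0.0570% of windows, at -88 to -72, chr1:145996645-145996673 (minus strand), and is shown in capitals with its spacer. An element of the unfolded protein response, CCAAT and CCACG 9 bases apart, was present for 0 of 10 genes and in 0.0769% of windows. A match to letters is a description of the window and not a bound site.
TXNIP: gatgtgCACGAGGGCAGCACGAGcctccg

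The first question was how the genes responded to hypoxia. DDIT4 and TXNIP were higher in both hypoxia libraries, ASNS and CHAC1 were lower in both, and the other 6 changed less than 2-fold in both knockdown states. In scrambled cells 2 genes were called higher, where 12.9% of background genes were, and 2 were called lower, where 4.53% were. In TET1-si cells 2 were called higher, against a background of 12.5%, and 2 lower, against 8.66%. The median change of the 10 genes was 0.26 in scrambled and -0.31 in TET1-si cells, beside 0.05 and 0.03 over all background genes.

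**Figure D1:**
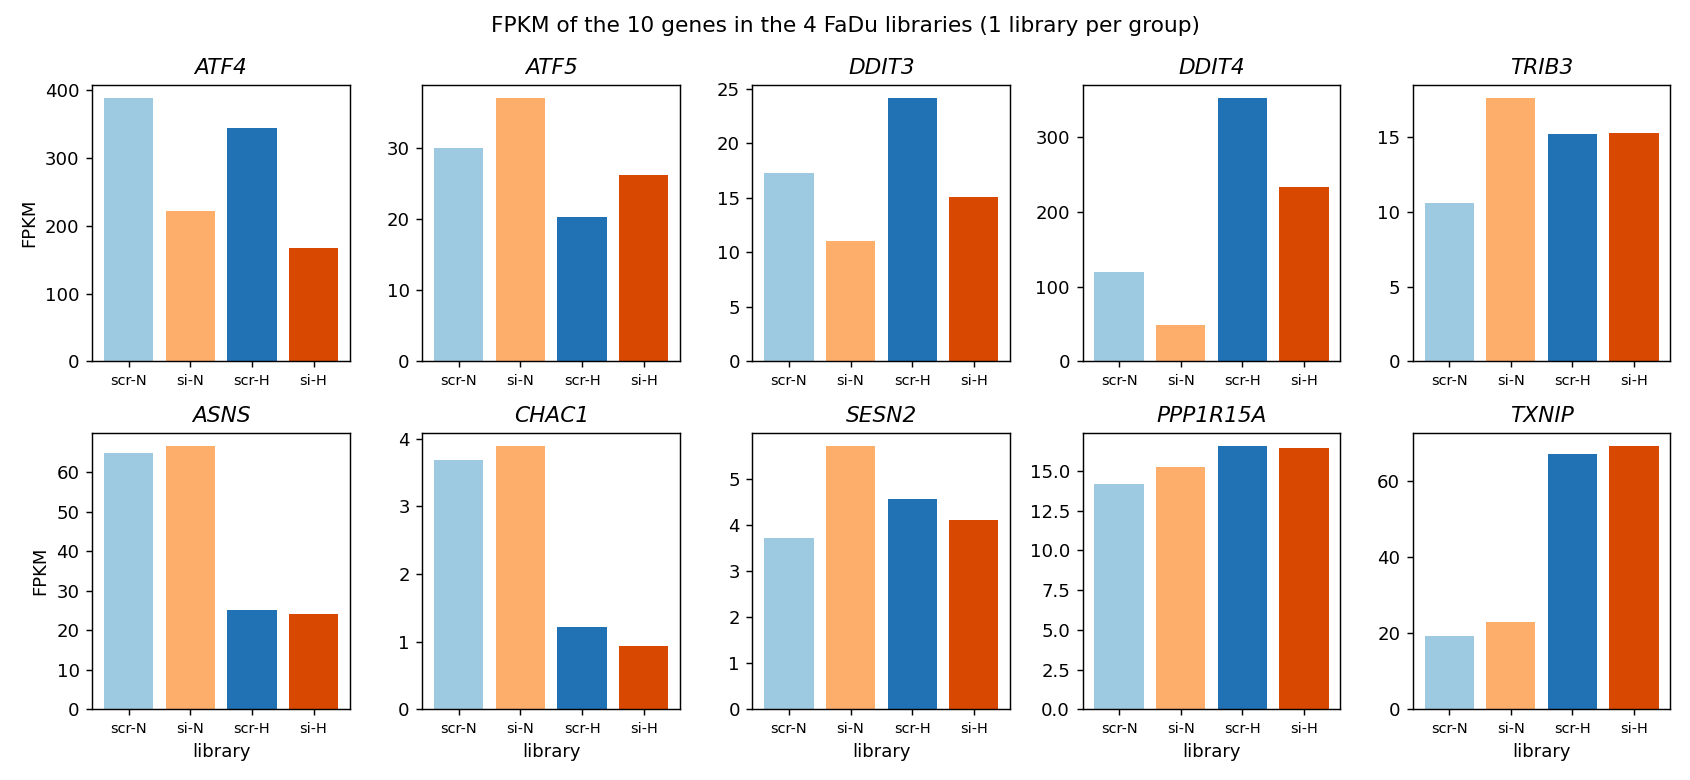
FPKM (vertical axes, each starting at 0) of the 10 genes in the 4 libraries, 1 bar per library and no error bars because each group had 1 library. DDIT4 and TXNIP are highest in the hypoxia bars, ASNS and CHAC1 are highest in the normoxia bars, and ATF4 is lower in both TET1-si bars, from 387.8 FPKM in scr-N to 167 in si-H.

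DDIT4 (ENSG00000168209, chr10:74033678-74035794, plus strand, hg19), also called REDD1, restrains mTORC1 through the TSC1-TSC2 complex. Its level was 119 FPKM in scr-N, 48.9 in si-N, 352 in scr-H and 233 in si-H. Both hypoxia libraries lay above both normoxia libraries, and within each oxygen state the TET1-si library was the lower one. Under hypoxia the scrambled cells had 2.96-fold more, a log2 change of 1.56 [1.51, 1.61], and the TET1-si cells 4.77-fold more, 2.25 [2.18, 2.33]. The second response exceeded the first by 0.69 [0.60, 0.78] on the log2 scale, and the absolute gain was larger in scrambled cells. Its rank among the 10 genes moved from 2 in scr-N and 3 in si-N to 1 in both hypoxia libraries, above ATF4.

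Known HIF targets set beside DDIT4 behaved in several ways. VEGFA, the vascular growth factor, was at 80.2, 77.9, 172 and 136 FPKM in scr-N, si-N, scr-H and si-H, with log2 hypoxia responses of 1.10 and 0.80. ADM, the vasodilator adrenomedullin, was at 21.1, 6.94, 35.9 and 11.6 FPKM, with responses of 0.76 and 0.73. CA9, a carbonic anhydrase, was at 0.180 FPKM in scr-N, listed at 0 in si-N, and at 7.82 in scr-H and 0.506 in si-H. Of these 3 genes and DDIT4, DDIT4 was the one whose response on the log2(FPKM + 0.1) scale was larger in TET1-si cells. The difference of responses was -0.30 [-0.36, -0.24] for VEGFA. For ADM it was -0.03 [-0.31, 0.26], within counting error. The CA9 response in TET1-si cells, 2.60, rests on the pseudocount, with 0 reads in si-N and about 15 in si-H.

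TXNIP (ENSG00000117289, chr1:145438469-145442635, hg19) was at 19.4 FPKM in scr-N, 23.0 in si-N, 67.1 in scr-H and 69.1 in si-H. The hypoxia pair stood apart from the normoxia pair, and the knockdown states lay close together within each. Under hypoxia the scrambled cells had 3.46-fold more, 1.79 [1.70, 1.89], and the TET1-si cells 3.01-fold more, 1.58 [1.502, 1.67]. The gene carries an older identifier than the annotation used here and was matched to it by symbol and position.

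ASNS (ENSG00000070669, chr7:97481430-97501854, minus strand), asparagine synthetase and a standard reporter of ATF4 activity, was at 64.7 FPKM in scr-N, 66.5 in si-N, 25.02 in scr-H and 24.1 in si-H. Both hypoxia libraries lay below both normoxia libraries. The level was 2.59-fold lower in hypoxia in scrambled cells, -1.37 [-1.46, -1.28], and 2.76-fold lower in TET1-si cells, -1.46 [-1.56, -1.37]. Among background genes these changes stood at percentiles 1.83 and 4.06. A long noncoding gene of the GENCODE annotation, ENSG00000284707, covers 99.5% of the ASNS transcript on the same strand. It was not analysed here, and reads of the pair cannot be told apart.

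CHAC1 (ENSG00000128965, chr15:41245160-41248710, plus strand), a glutathione-degrading enzyme induced downstream of ATF4, was the lowest of the 10 genes in every library. It was at 3.69 FPKM in scr-N, 3.89 in si-N, 1.22 in scr-H and 0.936 in si-H, on about 111, 125, 39 and 28 reads. As for ASNS, the 2 hypoxia libraries were the low ones. The level was 3.01-fold lower in hypoxia in scrambled cells, -1.52 [-2.17, -1.07], and 4.16-fold lower in TET1-si cells, -1.95 [-2.68, -1.44]. The difference of the responses, -0.43 [-1.26, 0.33], was within counting error.

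**Figure D2:**
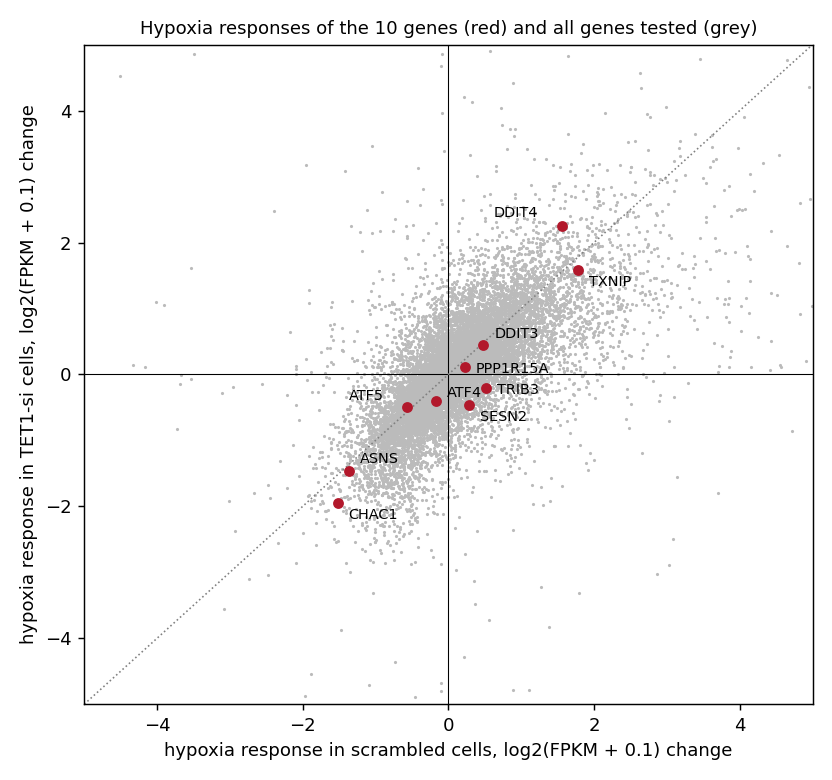
Log2(FPKM + 0.1) change with hypoxia in scrambled cells (horizontal) against that in TET1-si cells (vertical) for the 10 genes (red, named) and the background genes (grey, 305 outside the plotted range), with a dotted line where both are equal. DDIT4 and TXNIP lie in the upper right, ASNS and CHAC1 in the lower left, and TRIB3 and SESN2 to the right of 0 but below it.

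ATF4 (ENSG00000128272, chr22:39915700-39918691, plus strand) was at 387.8 FPKM in scr-N, 221 in si-N, 343.8 in scr-H and 167 in si-H, a level above 97.3% of background genes by its mean. The TET1-si libraries were the low ones, and the changes with hypoxia were smaller, -0.17 [-0.21, -0.13] in scrambled and -0.40 [-0.46, -0.35] in TET1-si cells. ATF4 is regulated mainly by translation, which these libraries did not measure. Its processed copies and those of ASNS were listed at no more than 0.134 FPKM.

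ATF5 (ENSG00000169136, chr19:50431959-50437192, plus strand), an ATF4 relative that is likewise translated under stress, was at 30.03 FPKM in scr-N, 37.0 in si-N, 20.2 in scr-H and 26.1 in si-H. It was lower in hypoxia in both knockdown states, by -0.57 [-0.69, -0.44] and -0.50 [-0.61, -0.39]. Its canonical transcript shares 196 bases (9.77%) with NUP62 on the opposite strand, which was at 42.4 FPKM in scr-N and 16.3 in si-H, its highest and lowest levels. No source says that strand was kept, so reads over shared bases cannot be told apart.

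DDIT3 (ENSG00000175197, chr12:57910371-57914300, minus strand), the pro-apoptotic factor CHOP, was at 17.3 FPKM in scr-N, 11.1 in si-N, 24.2 in scr-H and 15.1 in si-H. It was higher in hypoxia in both states, by 0.48 [0.26, 0.71] and 0.45 [0.17, 0.74]. Its transcript shares 219 bases (24.3%) with MARS, the methionyl-tRNA synthetase gene on the opposite strand, at 156, 124, 136 and 61.7 FPKM in scr-N, si-N, scr-H and si-H. MARS was lower in hypoxia in both states while DDIT3 was higher, and lower with TET1-si in both oxygen states as DDIT3 was. Its part in the DDIT3 values was not tested.

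TRIB3 (ENSG00000101255, chr20:361261-378203, plus strand), a pseudokinase that DDIT3 and ATF4 induce and that inhibits AKT, was at 10.6 FPKM in scr-N, 17.6 in si-N, 15.2 in scr-H and 15.2 in si-H. scr-N was the low library and the other 3 lay between 15.2 and 17.6 FPKM. It was higher in hypoxia in scrambled cells, 0.51 [0.36, 0.68], and lower in TET1-si cells, -0.21 [-0.35, -0.07]. SESN2 (ENSG00000130766, chr1:28586038-28609002, plus strand), a leucine sensor that restrains mTORC1, had the same lowest and highest libraries, with 3.72, 5.71, 4.57 and 4.11 FPKM in scr-N, si-N, scr-H and si-H. Its responses were 0.29 [0.07, 0.53] and -0.47 [-0.69, -0.26]. The hypoxia response was thus smaller in TET1-si cells by 0.72 for TRIB3 and 0.75 for SESN2, with intervals of the difference of [-0.94, -0.51] and [-1.08, -0.46].

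PPP1R15A (ENSG00000087074, chr19:49375649-49379314, plus strand), or GADD34, directs the phosphatase that reverses eIF2 phosphorylation and so ends the response. It varied least of the 10, at 14.2 FPKM in scr-N, 15.2 in si-N, 16.6 in scr-H and 16.5 in si-H, with a ratio of highest to lowest of 1.17. Its hypoxia responses were 0.22 [0.08, 0.37] and 0.11 [-0.03, 0.25].

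**Figure D3:**
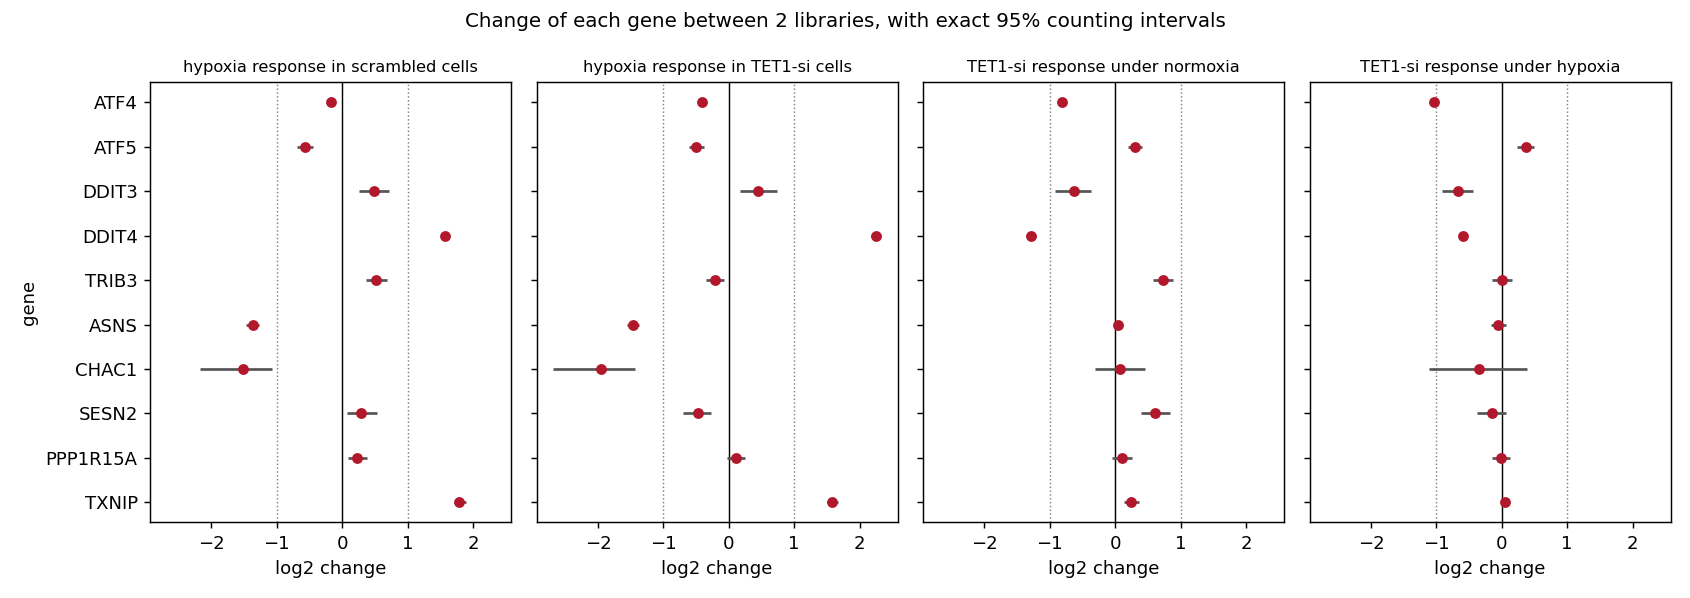
Log2(FPKM + 0.1) change of each of the 10 genes (points) in the 4 comparisons, with exact 95% counting intervals (bars) and dotted lines at the 2-fold threshold. Beyond the dotted lines lie DDIT4, TXNIP, ASNS and CHAC1 in both hypoxia panels, DDIT4 in the TET1-si panel for normoxia and ATF4 in that for hypoxia.

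The second question was how the knockdown altered the genes within each oxygen state. ATF4, DDIT3 and DDIT4 were lower in the TET1-si library in both normoxia and hypoxia, and ATF5 was higher in both. ATF4 and DDIT4 each crossed the 2-fold threshold in 1 of the 2 states. In normoxia 0 genes were called higher, against 12.1% of background genes, and 1 lower, against 5.56%. In hypoxia 0 were called higher, against 12.0%, and 1 lower, against 8.35%. The median change of the 10 was 0.09 in normoxia and -0.10 in hypoxia, beside 0.15 and 0.10 over all background genes. Of the background genes called in either direction, 68.6% were higher in normoxia and 59.0% in hypoxia. Scaling the libraries by the median of ratios moved these shares to 56.0% and 47.0%, and moved the background medians to -0.00 and -0.03.

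ATF4 was lower with TET1-si by 0.81 on the log2 scale in normoxia, -0.81 [-0.86, -0.77], and by more in hypoxia, -1.04 [-1.09, -0.99]. The difference of the responses was -0.23 [-0.30, -0.16]. Under hypoxia the value sits at the threshold: it was -0.97 on TPM, which rescales each library to one common sum, and -1.19 after median-of-ratios scaling. DDIT4 was 2.44-fold lower in normoxia, -1.28 [-1.36, -1.20], and 1.51-fold lower in hypoxia, -0.59 [-0.63, -0.55]. DDIT3 was lower by like amounts in both, -0.64 [-0.92, -0.37] and -0.67 [-0.91, -0.44].

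ATF5 was higher with TET1-si, by 0.30 [0.19, 0.41] in normoxia and 0.37 [0.24, 0.50] in hypoxia. TRIB3 and SESN2 were higher in normoxia, by 0.72 [0.57, 0.89] and 0.61 [0.40, 0.84]. In hypoxia neither difference lay beyond counting error, at 0.00 [-0.14, 0.15] and -0.15 [-0.38, 0.07]. The mTORC1 restraints DDIT4 and SESN2 differed in opposite directions in normoxia, DDIT4 lower and SESN2 higher.

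The knockdown changes of the ATF4 targets ASNS and CHAC1 had intervals that included 0 in both oxygen states. ASNS changed by 0.04 [-0.03, 0.11] in normoxia and -0.05 [-0.17, 0.06] in hypoxia. CHAC1 changed by 0.07 [-0.31, 0.46] and -0.35 [-1.11, 0.38]. TXNIP was higher by 0.25 [0.14, 0.36] in normoxia and by 0.04 [-0.02, 0.10] in hypoxia, and PPP1R15A changed by 0.10 [-0.04, 0.26] and -0.01 [-0.15, 0.13]. Median-of-ratios scaling turned the sign of the normoxia values of ASNS (to -0.13), CHAC1 (to -0.09) and PPP1R15A (to -0.06), and of the hypoxia values of TRIB3 (to -0.14) and TXNIP (to -0.10).

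The difference of the hypoxia responses, TET1-si less scrambled, shares all 4 libraries. It was called for 0 of 10 genes in either direction, where 4.87% of background genes were called higher and 7.86% lower. It was below 0 for 8 of the 10, and above 0 for 44.6% of background genes. The median was -0.16 beside -0.06 over the background genes, and the value was above 0 for DDIT4 and ATF5. ATF5 (0.07 [-0.10, 0.24]), DDIT3 (-0.03 [-0.39, 0.32]), ASNS (-0.09 [-0.22, 0.04]) and PPP1R15A (-0.11 [-0.32, 0.09]) had intervals that included 0, as CHAC1 did, and TXNIP was at -0.20 [-0.33, -0.08].

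Genes close together on a chromosome can share a change, so each knockdown change was set beside the median change of the 50 nearest protein-coding genes (29 for TRIB3). This comparison was chosen after the values were seen. The neighbours of DDIT3 had medians of -0.39 in normoxia and -0.41 in hypoxia, and DDIT3 less its neighbours was -0.25 and -0.26. Those of ATF4 had medians of -0.07 and -0.14 and those of DDIT4 of 0.01 and -0.04, so both genes kept most of their difference, with ATF4 at -0.74 and -0.90 and DDIT4 at -1.30 and -0.55. The neighbours of ASNS had medians of -0.23 and -0.38, and ASNS stood 0.27 and 0.33 above them. SESN2 less its neighbours was 0.39 in normoxia, where their median was 0.22. The neighbours of CHAC1 had medians of 0.33 and 0.18, and CHAC1 less its neighbours was -0.26 and -0.53.

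**Figure D4:**
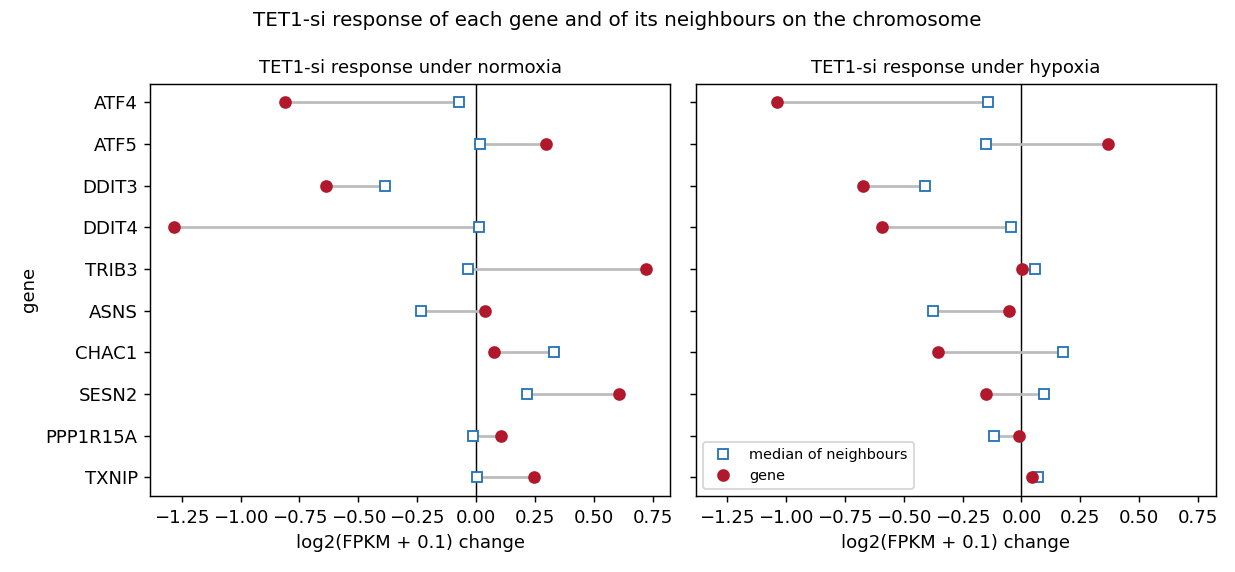
Log2(FPKM + 0.1) change with TET1-si in normoxia (left) and hypoxia (right) of each of the 10 genes (filled circles) and the median over their nearest protein-coding genes on the chromosome (open squares). ATF4 and DDIT4 lie well to the left of their neighbours, whose medians are between -0.14 and 0.01, and the DDIT3 neighbours lie at -0.39 and -0.41.

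The wider pathway was described from 5 lists. The upstream list holds the eIF2 kinases, eIF2, its exchange factor eIF2B, and the genes PPP1R15B, NCK1 and IMPACT. Of these, 15 of 15 genes were in the background. Hypoxia left 0 genes called in either direction in scrambled cells and 0 higher and 2 lower in TET1-si cells, with medians of -0.20 and -0.33. Over all background genes hypoxia called 12.9% higher and 4.53% lower in scrambled and 12.5% and 8.66% in TET1-si cells, the shares against which each list below is to be read. TET1-si called 0 in either oxygen state, where 12.1% of background genes were higher and 5.56% lower in normoxia and 12.0% and 8.35% in hypoxia. EIF2AK3 (PERK), the kinase of the endoplasmic reticulum, was at 4.99, 6.44, 9.48 and 8.21 FPKM in scr-N, si-N, scr-H and si-H and had the highest hypoxia response of the list, 0.91 and 0.34. EIF2S1, the phosphorylated subunit, was at 355, 447, 193 and 167 FPKM, with responses of -0.88 and -1.42, and EIF2B3, an exchange factor subunit, had the lowest response in TET1-si cells, -1.65.

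EIF2AK4 (GCN2), the amino acid sensor, was at 11.5, 22.2, 11.5 and 18.3 FPKM in scr-N, si-N, scr-H and si-H, and higher with TET1-si by 0.95 and 0.67. It was the highest knockdown response of the list in both oxygen states, and EIF2B1 was the lowest at -0.78 and -0.96. EIF2AK4 is among the chromosome neighbours of CHAC1, whose medians with TET1-si were 0.33 in normoxia and 0.18 in hypoxia. EIF2AK1 (HRI) stayed between 98.7 and 115 FPKM. EIF2AK2 (PKR), the sensor of double-stranded RNA, was at 33.2, 42.9, 36.6 and 25.1 FPKM, and PPP1R15B, the constitutive partner of the eIF2 phosphatase, lay between 28.7 and 35.4.

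Of 8 partner transcription factors, hypoxia called 2 higher in scrambled and 1 higher in TET1-si cells, and 0 lower, against 12.9% and 12.5% of background genes higher and 4.53% and 8.66% lower, with medians of 0.31 and -0.02. With TET1-si, 2 were called higher and 1 lower in normoxia, and 0 higher and 3 lower in hypoxia, with medians of -0.21 and 0.02. The background shares were 12.1% and 5.56% in normoxia and 12.0% and 8.35% in hypoxia. ATF3, a stress-induced repressor, was at 6.49 FPKM in scr-N, 34.5 in si-N, 14.0 in scr-H and 25.03 in si-H. scr-N was again the low library, as for TRIB3 and SESN2, with a knockdown change of 2.39 in normoxia and 0.83 in hypoxia. NUPR1, a small chromatin protein, was at 1.31, 0.120, 3.22 and 0.993 FPKM, with hypoxia responses of 1.24 and 2.31 and knockdown changes of -2.68 and -1.60. Its si-N level is near the pseudocount of 0.1, which shrinks the changes that involve it. By FPKM its hypoxia ratio in TET1-si cells was 8.30-fold. As for DDIT4, scr-H was its highest library and si-N its lowest.

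CEBPB and CEBPG, dimer partners of ATF4 and of DDIT3, were lower with TET1-si as both of those were. The list did not share a direction: 4 of its 8 genes lay above 0 and 4 below in each oxygen state. ATF2 was higher with TET1-si by 1.26 in normoxia and 0.66 in hypoxia, and NFE2L2 by 0.71 and 0.56. CEBPB was at 13.2, 7.52, 15.6 and 5.93 FPKM in scr-N, si-N, scr-H and si-H, with knockdown changes of -0.80 and -1.38, and CEBPG was at 22.2, 13.5, 16.1 and 7.32, with changes of -0.72 and -1.12. ATF6, the factor of the unfolded protein response, had the lowest hypoxia response in scrambled cells, -0.66, and CEBPG the lowest in TET1-si cells, -0.87.

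Of 32 other ATF4 targets, 30 were in the background. In hypoxia 3 were called higher and 4 lower in scrambled cells, and 0 higher and 9 lower in TET1-si cells, with medians of -0.41 and -0.62. The 3 called higher were VLDLR, SLC38A2 and VEGFA, the last also set beside DDIT4 above as a HIF target. Background genes were called higher in 12.9% and 12.5% and lower in 4.53% and 8.66% of cases. Like ASNS and CHAC1, 21 of the 30 genes lay below 0 in each state, where 52.9% and 51.5% of background genes lay above 0. PSAT1, of serine synthesis, was at 82.5 FPKM in scr-N, 44.01 in si-N, 23.3 in scr-H and 7.25 in si-H, with responses of -1.82 and -2.58. PYCR1, of proline synthesis, was at 69.4, 228.0, 14.9 and 69.2 FPKM, with responses of -2.21 and -1.72. VLDLR, a lipoprotein receptor, had the highest responses, 1.81 and 0.997.

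With TET1-si, 3 of these targets were called higher and 0 lower in normoxia, and 2 higher and 5 lower in hypoxia, where the background shares were 12.1% and 5.56%, and 12.0% and 8.35%. The medians of -0.27 and -0.46 had the sign of ATF4, and 20 of 30 genes lay below 0 in each oxygen state, where 60.3% and 56.5% of background genes lay above 0. WARS, the tryptophanyl-tRNA synthetase, was at 199 FPKM in scr-N, 99.8 in si-N, 369 in scr-H and 66.3 in si-H, the lowest changes of the list at -0.997 and -2.48. PYCR1 was the highest at 1.71 and 2.21.

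**Figure D5:**
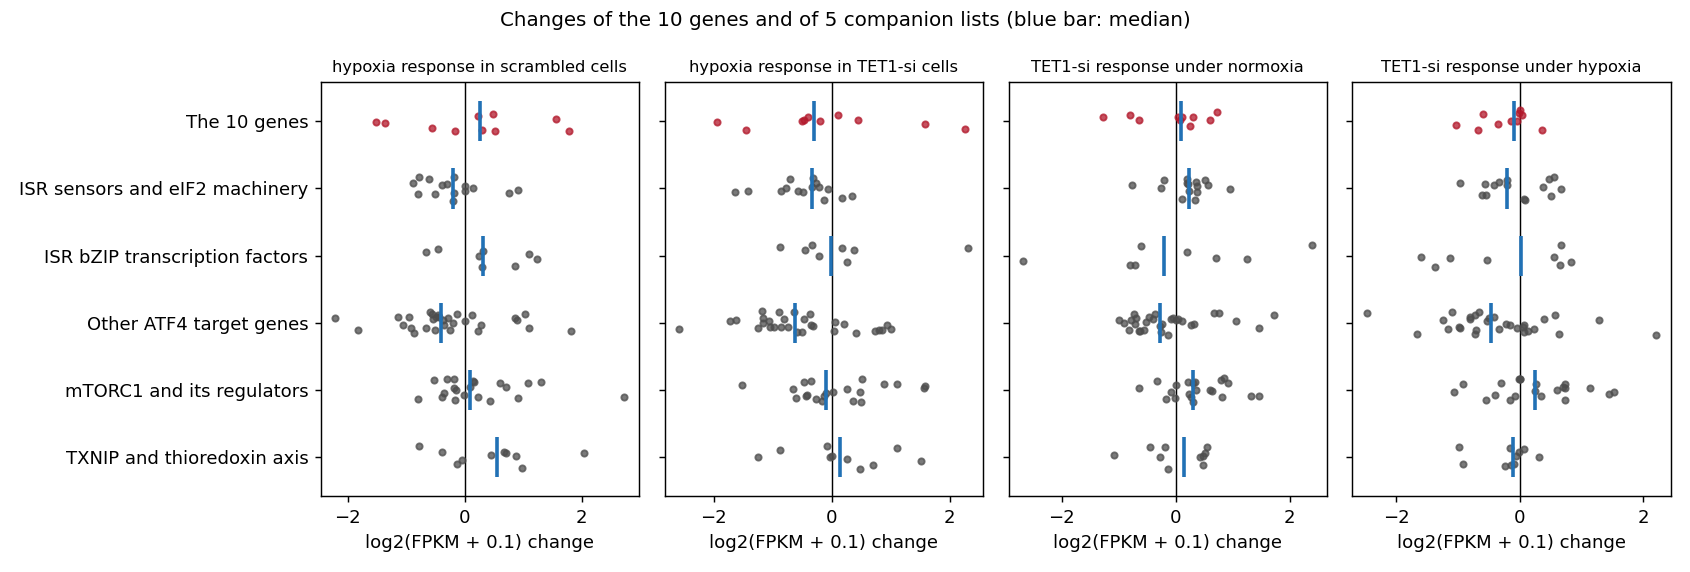
Log2(FPKM + 0.1) changes (horizontal axes) of the 10 genes (red) and of the members of 5 lists of related genes (grey) in the 4 comparisons, each point 1 gene with a mean of at least 1 FPKM and each blue bar the median. The bars of the other ATF4 targets lie left of 0 in all 4 panels, at -0.41, -0.62, -0.27 and -0.46.

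For mTORC1 and its regulators, 21 of 22 genes were in the background. Hypoxia called 3 higher and 0 lower in scrambled cells and 3 higher and 1 lower in TET1-si cells, with medians of 0.08 and -0.10, and the higher calls were near the background shares of 12.9% and 12.5%. TET1-si called 2 higher and 0 lower in normoxia and 3 higher and 1 lower in hypoxia, with medians of 0.30 and 0.24. Beside these, 12.1% of background genes were higher and 5.56% lower in normoxia, and 12.0% and 8.35% in hypoxia. GATSL3, an arginine sensor that inhibits mTORC1, was at 0.379, 0.629, 3.08 and 2.07 FPKM in scr-N, si-N, scr-H and si-H, with the highest hypoxia responses at 2.73 and 1.57 on about 11 to 97 reads. EIF4EBP1, a translation repressor that mTORC1 inactivates and ATF4 induces, had the lowest, -0.80 and -1.53, and was the lowest of the list with TET1-si in hypoxia, -1.06. NPRL2, of the amino acid brake complex GATOR1, was the highest with TET1-si at 1.47 and 1.53, and its partner DEPDC5 was lower by 0.65 in normoxia, at 26.8 FPKM in scr-N and 17.1 in si-N.

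The relatives of SESN2 did not share its order of the 4 libraries, though scr-N was their lowest library too. SESN1 was at 4.77, 8.64, 7.25 and 12.2 FPKM in scr-N, si-N, scr-H and si-H, higher in hypoxia in both knockdown states and higher with TET1-si in both oxygen states. SESN3 was at 1.68, 4.36, 3.66 and 5.62 FPKM, with knockdown changes of 1.32 and 0.61. Its hypoxia responses were 1.08 in scrambled and 0.36 in TET1-si cells. The difference of these, -0.72, was close to the -0.75 of SESN2, while that of SESN1 was -0.10. TSC1, through which DDIT4 acts, was at 25.9 and 22.9 FPKM in normoxia and 42.4 and 42.3 in hypoxia in scrambled and TET1-si cells, and TSC2 was at 41.7, 51.4, 44.1 and 73.1 in scr-N, si-N, scr-H and si-H.

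In the list around TXNIP, 10 of 11 genes were in the background. Hypoxia called 1 higher and 0 lower in scrambled cells and 2 higher and 1 lower in TET1-si cells, with medians of 0.56 and 0.14, counts near the background shares of 12.9% and 12.5% higher and 4.53% and 8.66% lower. TET1-si called 0 higher and 1 lower in normoxia (TXN2, -1.09) and 0 in hypoxia, with medians of 0.14 and -0.12. The background shares were 12.1% higher and 5.56% lower in normoxia and 12.0% and 8.35% in hypoxia. SLC2A1, the glucose transporter that TXNIP removes from the cell surface, was at 101 FPKM in scr-N, 145 in si-N, 418 in scr-H and 415 in si-H. Like TXNIP it was high in both hypoxia libraries, by 2.04 and 1.51. TXN, the thioredoxin that TXNIP inhibits, went the other way at 444, 326, 259 and 137 FPKM, with responses of -0.78 and -1.25. ARRDC4, the closest relative of TXNIP, lay between 1.64 and 2.73 FPKM and had the highest knockdown change of the list in normoxia, 0.55. ARRDC1 had the highest in hypoxia, 0.31. MLXIP was at 19.5, 17.8, 26.6 and 25.01 FPKM.

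DDIT4 and CHAC1 had the widest range over the 4 libraries. Among 9466 protein-coding genes with a mean of at least 5 FPKM, the patterns most like that of DDIT4, by Euclidean distance of the 4 centred log2(FPKM + 0.1) values, were those of IRF9 (distance 0.40), HIST1H2AC (0.44) and PLA2G6 (0.49). IRF9 was at 75.2, 33.6, 245 and 115 FPKM in scr-N, si-N, scr-H and si-H. Those most like CHAC1 were FAM81A (0.16), RAPGEF6 (0.19) and ATP5G1 (0.20), the last at 381, 349, 137 and 94.9 FPKM. With 4 libraries such likeness is a description of these values.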

How the data were processed

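RNA was measured in 4 FaDu libraries, 1 per group. The authors prepared TruSeq mRNA libraries, sequenced 100 bp reads on a HiSeq 2000 and ran TopHat and Cufflinks on hg19 with Ensembl annotation, and the values were deposited as FPKM per gene. The labels call the reads single end and the methods paired end. Tool versions, the Ensembl release, filters and strand setting are not given in the sources used here. Depth was recovered from 5208 single-exon genes, whose FPKM are whole reads over depth and length less 212 bp. Between 96.9% and 97.4% of low values came out whole within 0.05. Approximate reads are FPKM times depth times the GENCODE v44lift37 transcript length less that offset. Rows of repeated identifiers (232) were left out of the background. Samples were grouped by GEO's labels. Changes, calls and intervals were computed with Python 3.11.15, NumPy 2.4.6, pandas 2.3.3 and SciPy 1.17.1, and checked on simulated data. No test across libraries was run: each group had 1 library, and an additive fit of hypoxia and knockdown would take their interaction as its only measure of error.

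The 10 genes and the lists were chosen with earlier results of these data known. Named besides them were each list's highest and lowest change per comparison, TET1, sensors and partners of interest, 3 HIF targets, and the 3 genes nearest in pattern to DDIT4 and CHAC1, the 2 genes with the widest range. Alternatives were the pseudocount (1 or 0.01), median-of-ratios scaling, upper-quartile scaling, TPM, the filter (none, or a mean of at least 5 FPKM), the fold (1.5 or 3) and, chosen after seeing the data, the change less that of neighbouring genes.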

Additional observations from a re-analysis of the deposited data

Results flagged for a closer look

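Each of the following genes had one change above 0 and the other below 0 in the 2 states compared, with 1 library per group, so the differences between states were not tested. In each case both 95% counting intervals excluded 0 on the FPKM as deposited. The intervals do not cover the scaling of the libraries, and whether they exclude 0 under another scaling was not tested. TRIB3 in TET1-si cells came nearer to 0 on TPM, with a hypoxia response of -0.07. SESN2 in scrambled cells did so after median-of-ratios scaling, with a response of 0.18. They were looked for among the 10 genes and the genes named from the lists. Values are log2(FPKM + 0.1) changes, and the difference is the second state less the first.

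In response to hypoxia, TRIB3 was at 0.51 in scrambled and -0.21 in TET1-si cells, a difference of -0.72, and SESN2 at 0.29 and -0.47, a difference of -0.75. The direction was the same for EIF2AK2 (0.14 and -0.77, difference -0.91), ATF3 (1.10 and -0.46, difference -1.56), CEBPB (0.24 and -0.34, difference -0.58) and WARS (0.89 and -0.59, difference -1.48).

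In response to TET1-si, EIF2AK2 was at 0.37 in normoxia and -0.54 in hypoxia, a difference of -0.91. EIF2AK3 was at 0.36 and -0.21 (difference -0.57), EIF2S1 at 0.33 and -0.21 (difference -0.54) and EIF2B3 at 0.24 and -0.61 (difference -0.85). In a layout of 4 libraries the difference between hypoxia responses and that between knockdown responses are the same number, so EIF2AK2 appears under both.

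Over 94 genes, the 10 and the list genes in the background together, counted after the values were seen, such a turn from above to below 0 was present for 10 genes in the hypoxia responses and the opposite turn for 4, EIF2B5, RPTOR, SLC3A2 and SLC7A5. For the TET1-si responses the numbers were 6 and 2, the latter SLC6A9 and SLC7A5. The rule was not applied to all background genes, so these counts have no share to be read against. Of all background genes, 44.6% had a difference of hypoxia responses above 0, and 4.87% were called higher and 7.86% lower. SLC7A5 was at -0.46 and 0.42 with hypoxia, RPTOR at -0.53 and 0.26, and NCK1, which turned the other way, at 0.75 and -0.32.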

How the results depend on the processing

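No paired analysis was possible because the labels give no replicate numbers, and leaving out a library would remove its group. An additive fit over the 4 libraries was not run. Of 80 counts of called genes among the 10, 67 stayed within 1.5 times, and of 300 recomputed changes 281 kept their sign. The other 19 had changes of at most 0.11 in size. The ATF4 call with TET1-si in hypoxia was lost on TPM and after subtracting neighbours (0 lower in each). At 1.5-fold, TET1-si in normoxia gave 2 higher (TRIB3, SESN2) and 3 lower (ATF4, DDIT3, DDIT4), and in hypoxia 3 lower (the same genes). The difference of hypoxia responses gave 1 higher (DDIT4) and 2 lower (TRIB3, SESN2). Of background genes, 24.7% were higher and 12.0% lower at 1.5-fold in normoxia, and 24.3% and 16.8% in hypoxia. For the difference, 11.1% were higher and 16.7% lower. At 3-fold, hypoxia gave 1 higher (TXNIP) and 0 lower in scrambled cells and 1 higher (DDIT4) and 1 lower (CHAC1) in TET1-si cells, and TET1-si 0 lower in both oxygen states. Each loss at another fold follows from the threshold as applied to log2(FPKM + 0.1). CHAC1 in scrambled cells and TXNIP in TET1-si cells changed 3.01-fold by FPKM and fell short of 3-fold with the pseudocount. The ATF4 change with TET1-si in hypoxia, -1.04, was near the 2-fold threshold. The TPM factors, 1.38 for si-H and 1.32 for scr-H, raise it, and less its neighbours it was -0.90. What lies behind these shifts was not tested.

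Counts over all genes moved with the fold and with the filter. In scrambled cells hypoxia called 3492 higher and 2069 lower at 1.5-fold and 895 and 202 at 3-fold. In TET1-si cells these were 3574 and 2866, and 756 and 496. TET1-si called 3717 and 1810 in normoxia at 1.5-fold and 773 and 392 at 3-fold, and 3660 and 2527, and 698 and 553, in hypoxia. Without the filter, hypoxia called 4517 higher and 1654 lower in scrambled cells instead of 1937 and 682, and at a mean of at least 5 FPKM 905 higher. In TET1-si cells the corresponding counts were 4803 and 2333 instead of 1883 and 1304, and 823 higher. TET1-si called 3699 higher and 2299 lower in normoxia without the filter instead of 1828 and 837, and 4226 and 3083 in hypoxia instead of 1807 and 1258. A pseudocount of 1 lowered the higher calls of hypoxia in scrambled cells to 1237 and of TET1-si in normoxia to 1164. Upper-quartile scaling and median-of-ratios scaling moved the median of all genes with TET1-si in normoxia from 0.15 to -0.01 and -0.00, and TPM moved that with hypoxia in scrambled cells from 0.05 to 0.16. CHAC1, with about 28 to 125 reads, was the gene most limited by depth.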
